A study of Mus musculus with 24 samples.

Results

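The proteasome subunit genes were followed here in the choroid plexus of J20 and wild-type (WT) mice. They were taken by symbol: Psma, Psmb, Psmc, Psmd, Psme or Psmg followed by a digit, with Psmb8 and Psmb9 left out because those are read with antigen presentation. The array has probes for 43 such symbols. A probe was kept where its detection p-value was under 0.01 on at least 3 of the 24 arrays, and the brightest kept probe stood for its gene, which left 39 genes of the 8232 genes tested. Psma1, Psma6, Psmc6 and Psmd6 were detected on 0 arrays and are not described further. By role the 39 members are 5 of 7 subunits of the 20S alpha ring, 8 of 8 of the 20S beta ring, 3 of 3 chaperones of 20S assembly, 5 of 6 ATPases of the 19S base, 9 of 10 non-ATPase subunits of the 19S particle, 3 of 3 chaperones of 19S assembly and 4 of 4 activators. The symbols Psmc3ip and Psme3ip1 also meet the rule. They are named after a partner and are not subunits: Psmc3ip encodes a factor of meiotic recombination, and Psme3ip1 a protein that binds the activator Psme3.

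The study profiled the choroid plexus, the secretory tissue in the brain ventricles that makes cerebrospinal fluid, to compare J20 with WT mice as they age. J20 mice carry a human amyloid precursor protein transgene with familial Alzheimer's disease mutations, driven by a platelet-derived growth factor B promoter that is active mainly in neurons. One Illumina array was run per mouse, and animals are numbered here by the digits that close their titles. The groups were J20 (n = 4) and WT (n = 3) at 3 months, J20 (n = 4) and WT (n = 4) at 5-6 months, and J20 (n = 3) and WT (n = 6) at 11-12 months. No further treatment is given in the labels, nor is the sex of the animals, and the titles write AD for J20. The samples are whole tissue, so fewer cells of a type and less RNA per cell cannot be told apart.

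The proteasome is the barrel-shaped protease that degrades proteins tagged with ubiquitin. Its 20S core stacks rings of alpha subunits, which gate the entry, around rings of beta subunits, of which Psmb5, Psmb6 and Psmb7 carry the chymotrypsin-like, caspase-like and trypsin-like active sites. The 19S regulatory particle recognises tagged proteins, removes the ubiquitin and feeds the unfolded chain into the core with a ring of ATPases. Interferon exchanges the catalytic subunits for Psmb8, Psmb9 and Psmb10 and raises the activator formed by Psme1 and Psme2, while Nfe2l1 raises the ordinary subunits together through antioxidant response elements when proteasome activity falls short.

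The letters of those regulatory elements were looked for in RefSeq promoter windows of the GRCm38.p6 build, from 250 bases before to 50 bases after each start. Of the 39 members 33 have a window, and 27025 genes have one in all. The core of the antioxidant response element, TGANNNNGC on either strand, stood in 17 of 33 member windows (51.5%) and in 41.4% of all windows. Psmb5 and Psmb6 are shown because they carry active sites and both have this core just before the start. Each stretch is the 150 bases before the start, written on the gene's strand, with the core in capitals.

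Psmb5, chr14:54617996-54618145, minus strand: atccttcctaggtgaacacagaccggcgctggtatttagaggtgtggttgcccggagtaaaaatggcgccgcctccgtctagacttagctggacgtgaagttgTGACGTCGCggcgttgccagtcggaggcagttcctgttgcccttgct

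Psmb6, chr11:70525207-70525356, plus strand: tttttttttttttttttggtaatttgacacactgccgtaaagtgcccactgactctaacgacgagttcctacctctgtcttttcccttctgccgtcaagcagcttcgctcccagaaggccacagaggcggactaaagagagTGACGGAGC

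The core begins 47 bases before the start in Psmb5 and 9 bases before it in Psmb6. An interferon-stimulated response element, GAAA, any 2 bases, GAAA on either strand, was found in 4 of 33 member windows (12.1%) and in 3.49% of all windows. Those 4 matches are shown with 30 bases around each on the gene's strand and the element in capitals; 3 of them read as the reverse complement.

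Psmb3, chr11:97703261-97703290, plus strand: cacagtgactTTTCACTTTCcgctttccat

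Psmd4, chr3:95042675-95042704, minus strand: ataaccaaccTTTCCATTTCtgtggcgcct

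Psmd9, chr5:123228021-123228050, plus strand: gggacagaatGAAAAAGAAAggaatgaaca

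Psme1, chr14:55578493-55578522, plus strand: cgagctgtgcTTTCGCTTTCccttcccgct

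The match in Psme1, a subunit of the interferon-inducible activator, begins at base 10 after the start, and those of Psmb3, Psmd4 and Psmd9 lie 163, 80 and 159 bases before it. The gamma-activated sequence, TTCNNNGAA, stood in 2 of 33 member windows (6.06%) and in 8.47% of all windows. TGACTCA, the AP-1 core, stood in 1 member window, that of Psmd9 (3.03%, against 5.17% of all windows), and counts as an antioxidant response element core too where GC follows it. CCAAT stood in 11 (33.3%, against 37.9%) and GGAA, the ETS core, in 33 (100%, against 95.9%). These matches describe letters in a window and say nothing of binding.

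Choroid plexus identity was clear in the arrays. Ttr, which encodes transthyretin, the leading secreted protein of the choroid plexus epithelium, averaged 15.03 ± 0.06 log2 intensity (SD, n = 3) in J20 mice and 14.94 ± 0.14 (SD, n = 6) in WT mice at 11-12 months. Of 10 epithelial markers 7 passed the detection filter, and Enpp2, Kcnj13 and Slc4a5 have no probe. Of 5 lymphocyte markers, each with a probe, 0 passed. Among neuronal markers Snap25 and Nefl were detected on 0 arrays, Tubb3 on 1, Rbfox3 on 9, Gad1 on 10 and Syt1 on 21. Among astrocyte markers Gfap was detected on 0 arrays, Slc1a2 on 3, Aqp4 on 20 and Aldh1l1 on 24. Markers of macrophages (6 of 8 tested), fibroblasts (4 of 6), endothelium (4 of 5), red cells (3 of 3), astrocytes (3 of 4), myelin (3 of 4), neurons (3 of 6) and ependyma (1 of 3) were measured, and 0 of them passed in any pairwise comparison. The upper quartile of raw intensity ran from 174 to 377 over the arrays, and 8987 to 10699 probes and 36 to 39 members were detected per array. One axis, the first principal component of all tested probes other than those of members, held 48.8% of the variance and had r = 0.72 over 24 arrays with the log2 upper quartile. At its low end 3 arrays stood apart, those of WT animal 15 at 3 months, J20 animal 18 at 5-6 months and J20 animal 21 at 11-12 months, and all 3 lie on the second of 3 BeadChips, the slides that hold 8 arrays each. In 7 of 39 members these 3 arrays lay below all 21 others, and in 2 members above them. The 3 arrays were picked by their place on this axis. The same share over all genes was not counted, so these counts do not set the members apart from other genes.

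The levels of proteasome genes in the choroid plexus did not differ detectably between J20 and WT mice at any age. Beside each count of members, the percentage in brackets is the share of all 11464 tested probes that met the same condition in limma. At 3 months 0 of 39 members passed an adjusted p of 0.05 (0%) and 0 had an unadjusted p under 0.05 (0.898%). At 5-6 months 0 members passed (0%) and 0 had an unadjusted p under 0.05 (1.26%). At 11-12 months 0 members passed (0%) and 2 had an unadjusted p under 0.05 (5.85%), Psmc1 and Psmg1. Over the mean of the 3 ages 0 members passed (0%) and 0 had an unadjusted p under 0.05 (1.98%). A moderated F test of genotype by age called 0 members (0%), with 0 at an unadjusted p under 0.05 (1.47%), and the F test over all 6 groups called 0 (0.0872%), with 0 at an unadjusted p under 0.05 (2.97%). Counting all 52 tested probes of the members, 0 passed in any pairwise comparison.

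The intervals of these differences show what size of change the arrays could leave unseen. For J20 minus WT over the 3 ages, the 95% interval of 33 of 39 members (84.6%) lay inside -0.5 to 0.5 on the log2 scale, as it did for 79.8% of all genes, and all 39 lay inside -1 to 1. The fitted differences ran between -0.28 for Psmd5, a chaperone of 19S assembly, and 0.14 for Psme3ip1. Their median was -0.04, with 13 of 39 members above 0 (33.3%), against a median of 0.02 over all genes with 56.5% above 0. By age the median over members was 0.02 at 3 months with 25 members above 0, -0.07 at 5-6 months with 9 above 0 and -0.04 at 11-12 months with 16 above 0. With median scaling in place of quantile normalization the first of these was -0.10 and the last 0.04. The sign at 3 months also turned without WT animal 15 (-0.04), and within BeadChips 1, 2 and 3 that median was -0.07, 0.13 and -0.02. Within BeadChips 2 and 3, the slides that hold every group, the median of the 3-age difference was -0.03 in each. Intervals at single ages were wider. At 3, 5-6 and 11-12 months 23 (59.0%), 25 (64.1%) and 20 (51.3%) of 39 members lay inside -0.5 to 0.5. The shares over all genes were 31.8%, 38.3% and 29.5%. At 11-12 months 34 members lay inside -1 to 1.

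**Figure D1:**
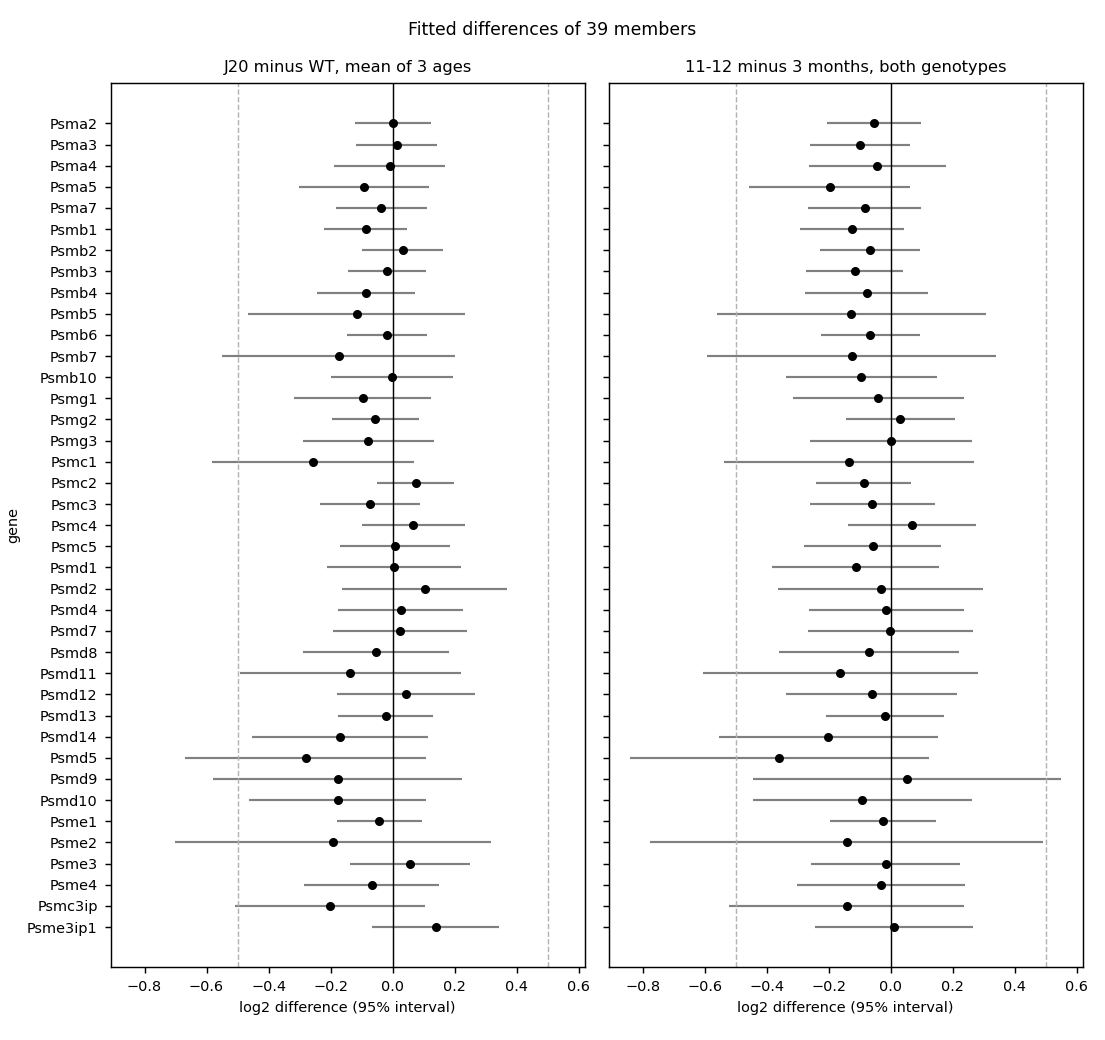
Fitted log2 differences of the 39 members with 95% intervals, for J20 minus WT over 3 ages (left) and for 11-12 minus 3 months over both genotypes (right), genes running down the page by role and dashed lines at -0.5 and 0.5. All 39 intervals on the left and all 39 on the right lie inside -1 to 1.

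The alpha ring forms the gated entrance of the core, and none of its members passed. Psma2 had the smallest spread of all members, with an SD within groups of 0.0946. At 11-12 months its log2 intensity was 13.63, 13.51 and 13.37 in J20 animals 21, 28 and 35, against 13.31, 13.44 and 13.51 as lowest, median and highest of 6 WT animals. The groups overlapped, and J20 animal 21 was the highest. Over the 3 ages 0 of 5 alpha subunits passed for genotype, and their differences lay between -0.09 for Psma5 and 0.01 for Psma3.

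Among the beta subunits the catalytic ones differed in how far single arrays spread. Psmb6, the caspase-like subunit, was nearly level. At 3 months it stood at 12.31, 12.17, 11.96 and 12.13 in J20 animals 2, 9, 16 and 23, against 12.19, 11.98 and 12.17 in WT animals 1, 15 and 22. At 5-6 months it stood at 11.96, 12.12, 11.90 and 11.98 in J20 animals 4, 11, 18 and 25, against 12.00, 12.11, 12.08 and 12.04 in WT animals 3, 10, 17 and 24. At 11-12 months it stood at 11.91, 12.08 and 12.17 in J20 animals, against 11.95, 12.08 and 12.19 as lowest, median and highest in WT animals. The genotypes overlapped at every age, and the difference over the 3 ages was -0.02 (95% interval -0.15 to 0.11, adjusted p = 0.9999 in limma).

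Psmb5, the chymotrypsin-like subunit and the main target of bortezomib, spread more widely within every group. Its values were 10.95, 10.64, 10.01 and 10.19 in J20 mice at 3 months, against 10.96, 9.71 and 10.45 in WT mice. At 5-6 months they were 11.00, 9.88, 9.79 and 10.32 in J20 mice, against 10.74, 10.40, 10.05 and 10.45 in WT mice. At 11-12 months they were 9.92, 10.31 and 10.24 in J20 mice, against a lowest of 9.91, a median of 10.38 and a highest of 10.84 in 6 WT mice. High and low arrays occurred in both genotypes, and the difference over the 3 ages was -0.12 (95% interval -0.47 to 0.23, adjusted p = 0.9999 in limma). It was -0.23 without WT animal 15 and -0.02 without WT animal 1.

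Psmb7, the trypsin-like subunit, was set apart by single arrays rather than by group. At 3 months it stood at 11.12, 10.92, 11.03 and 11.32 in J20 mice, against 11.25, 9.82 and 11.57 in WT mice, the low value being animal 15. At 5-6 months it stood at 11.34, 10.77, 10.08 and 10.96 in J20 mice, with animal 18 lowest, against 11.20, 10.76, 11.29 and 11.30 in WT mice. At 11-12 months it stood at 10.18, 10.98 and 10.84 in J20 mice, with animal 21 lowest, against 10.65, 11.08 and 11.51 as lowest, median and highest in WT mice. Those 3 animals are the ones whose arrays stood apart over all probes, 2 from J20 mice and 1 from WT mice. The difference over the 3 ages was -0.17 (95% interval -0.55 to 0.20, adjusted p = 0.9999 in limma). It was -0.35 without WT animal 15 and -0.06 without WT animal 22, the lowest and highest values with 1 array left out.

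Psmb10, the interferon-inducible counterpart of Psmb7, had r = -0.84 with the first component described above, where Psmb7 had 0.96. At 3 months it stood at 9.73, 9.81, 9.89 and 9.99 in J20 mice, against 9.83, 10.37 and 9.66 in WT mice, with animal 15 highest. At 5-6 months it stood at 9.53, 9.98, 10.11 and 9.79 in J20 mice, against 9.73, 9.98, 9.80 and 9.71 in WT mice. At 11-12 months it stood at 9.82, 9.81 and 9.87 in J20 mice, against 9.49, 9.85 and 10.10 as lowest, median and highest in WT mice. The groups overlapped at each age, and the difference over the 3 ages was -0.0015 (95% interval -0.20 to 0.19, adjusted p = 0.9999 in limma). Of the 8 beta subunits 0 passed for genotype, 7 stood below 0 over the 3 ages and Psmb2 stood at 0.03.

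**Figure D2:**
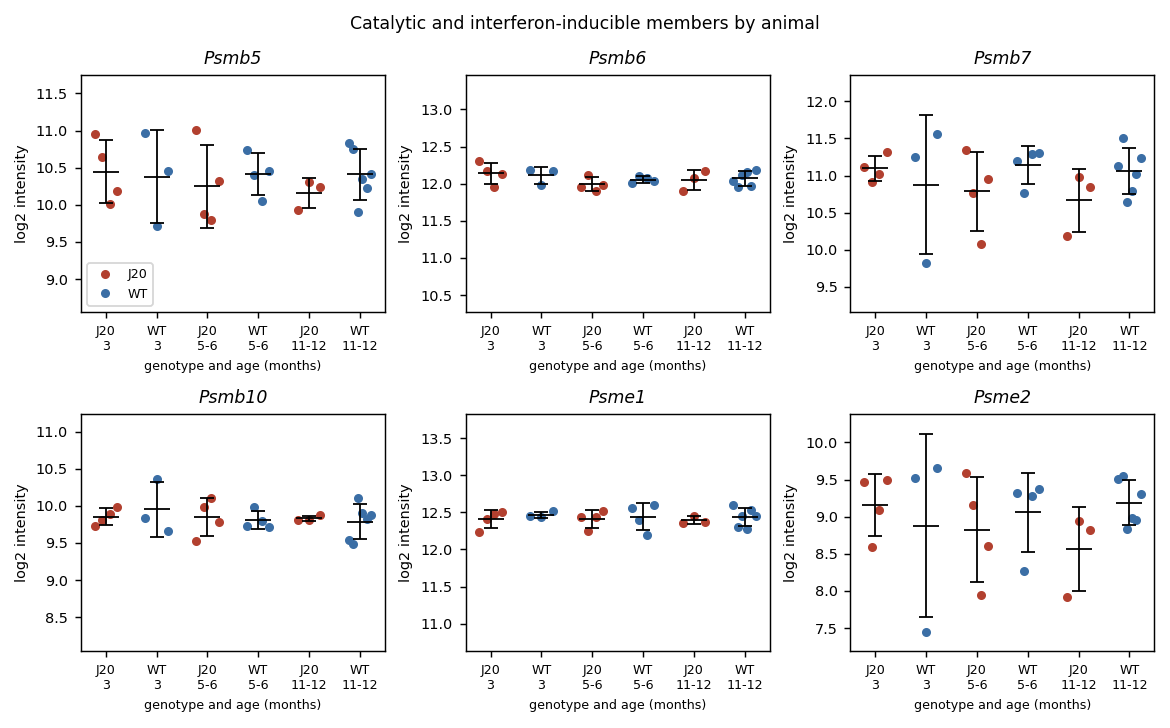
Log2 intensity of 3 catalytic subunits and 3 interferon-inducible members in every animal, by genotype (J20 left of WT) and age in months, each axis spanning 3.2 log2 units, with bars for the mean and SD of a group. By their brightest probes Psmb6 and Psme1 are level, while Psmb7 and Psme2 each have 1 low array in WT mice at 3 months, 9.82 and 7.45.

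Among the activators, both subunits of the interferon-inducible one were measured. Psme2 encodes the beta subunit of the interferon-inducible activator and had the largest spread of all members, with an SD within groups of 0.626. At 3 months it stood at 9.46, 8.59, 9.09 and 9.49 in J20 mice, against 9.53, 7.45 and 9.66 in WT mice. At 5-6 months it stood at 9.59, 9.16, 7.95 and 8.60 in J20 mice, against 9.32, 8.26, 9.28 and 9.38 in WT mice. At 11-12 months it stood at 7.92, 8.95 and 8.83 in J20 mice, against 8.84, 9.15 and 9.54 as lowest, median and highest in WT mice. At that age J20 animals 21 and 35 lay below all WT animals and J20 animal 28 among them, and the difference of -0.62 had a 95% interval of -1.48 to 0.24 (adjusted p = 0.70 in limma). With 1 array left out it ran from -0.81 (without J20 animal 28) to -0.30 (without J20 animal 21). The mouse genome also holds Psme2b, a second gene close to Psme2 in sequence. Whether this probe also reads signal from that gene was not examined.

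By its brightest probe Psme1, the alpha subunit of the same activator, spread less. At 3 months it stood at 12.24, 12.41, 12.47 and 12.51 in J20 mice, against 12.45, 12.43 and 12.52 in WT mice. At 5-6 months it stood at 12.44, 12.24, 12.44 and 12.52 in J20 mice, against 12.56, 12.40, 12.20 and 12.60 in WT mice. At 11-12 months it stood at 12.35, 12.45 and 12.37 in J20 mice, against 12.27, 12.45 and 12.60 as lowest, median and highest in WT mice. The genotypes overlapped at every age. Its difference over the 3 ages was -0.04 (95% interval -0.18 to 0.09, adjusted p = 0.9999 in limma), with an SD within groups of 0.124. The second Psme1 probe, detected on 24 arrays, had an SD within groups of 0.265 and r = 0.88 with the first component. It stood at -0.15 over the 3 ages (95% interval -0.38 to 0.08) and did not pass. Psme3, which forms the nuclear activator, and Psme4, which encodes a large single-chain activator, stood at 0.06 and -0.07 over the 3 ages, and 0 of 4 activators passed.

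Of the 19S base ATPases, Psmc1, which opens the gate of the core, had the lowest unadjusted p of any member for genotype. At 11-12 months it stood at 8.57, 9.80 and 9.19 in J20 animals 21, 28 and 35, against 9.52, 10.003 and 10.13 as lowest, median and highest in 6 WT animals. J20 animals 21 and 35 lay below all WT animals, and J20 animal 28 lay among them. The difference of -0.72 (standard error 0.26, 95% interval -1.27 to -0.17) did not pass (unadjusted p = 0.012, adjusted p = 0.70 in limma). With 1 array left out it ran from -1.03 to -0.41, the latter without animal 21. It was -1.19 within BeadChip 2 and -0.39 within BeadChip 3. Psmc1 passed under 1 alternative, limma with array weights, where the difference was -0.64 (adjusted p = 0.035 in limma) and 2.33% of all probes passed. At 3 months the same gene stood at 9.76, 9.83, 9.33 and 10.08 in J20 mice, against 9.95, 8.92 and 9.96 in WT mice, and at 5-6 months at 9.91, 9.59, 8.79 and 9.40 in J20 mice, against 9.62, 9.49, 9.68 and 9.63 in WT mice. The genotypes overlapped at both of those ages. Psmc4, another ATPase of the ring, stood at 12.58 ± 0.19 in J20 mice (SD, n = 3) and 12.30 ± 0.11 in WT mice (SD, n = 6) at 11-12 months, a difference of 0.28 that did not pass (adjusted p = 0.70 in limma).

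The non-ATPase subunits of the 19S particle held no called member, 0 of 9, and their median difference over the 3 ages was 0.01. Psmd4, a receptor for ubiquitin chains, and Psmd14, the deubiquitinase that removes the chain, stood at 0.03 and -0.17. Psmd12, a lid subunit, had a difference of 0.29 at 3 months that did not pass (95% interval -0.11 to 0.70, adjusted p = 0.9993 in limma). Its values were 10.38, 10.35, 10.43 and 10.34 in J20 mice, against 10.40, 9.49 and 10.35 in WT mice, with WT animal 15 lowest. Without that animal the difference was 0.00012, and without WT animal 1 it was 0.45. Psmd2, a scaffold of the base, was detected on 3 of 24 arrays and Psmd5 on 5, so that most of their values lie near background. Psmd9, a chaperone of the base with 12 arrays detected, had the second largest spread among members, with an SD within groups of 0.486.

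The 3 chaperones of 19S assembly, Psmd5, Psmd9 and Psmd10, stood at -0.48, -0.48 and -0.47 for J20 minus WT at 11-12 months, and 0 of 3 passed. At that age Psmd5 was detected on 0 of 3 J20 arrays and 1 of 6 WT arrays. Psmd9 was detected on 2 of 3 and 4 of 6, and Psmd10 on all, so most Psmd5 values and part of the Psmd9 values lie near background. Psmd10, also known as gankyrin, stood at 9.76, 10.52 and 10.31 in J20 mice, against 10.35, 10.63 and 11.19 as lowest, median and highest in WT mice. Psmd9 stood at 4.72, 5.62 and 5.81 in J20 mice, against 5.18, 5.92 and 6.25 in WT mice. Psmd5 stood at 4.48, 4.76 and 4.56 in J20 mice, against 4.48, 4.94 and 6.14 in WT mice. In all 3 genes J20 and WT animals overlapped. With 1 array left out the difference of Psmd9 ran from -0.70 (without J20 animal 35) to -0.15 (without J20 animal 21). That of Psmd10 ran from -0.63 (without J20 animal 28) to -0.25 (without J20 animal 21). That of Psmd5 ran from -0.60 (without WT animal 13) to -0.27 (without WT animal 6). Over the 3 ages these chaperones had the lowest class median, -0.18.

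Among the chaperones of 20S assembly, Psmg1, which pairs with Psmg2 to build the alpha ring, was the second member with an unadjusted p under 0.05 at 11-12 months. Its values were 8.21, 8.40 and 8.35 in J20 animals 21, 28 and 35, against 8.44, 8.75 and 8.88 as lowest, median and highest in 6 WT animals. The 3 J20 animals lay below all 6 WT animals. The difference of -0.39 (standard error 0.18, 95% interval -0.77 to -0.02) did not pass (unadjusted p = 0.040, adjusted p = 0.70 in limma), and it was -0.58 within BeadChip 2 and -0.20 within BeadChip 3. At 3 months Psmg1 stood at 8.76, 8.49, 8.70 and 8.73 in J20 mice, against 8.84, 7.85 and 8.65 in WT mice, with WT animal 15 lowest. That difference was 0.22, and it was -0.07 without WT animal 15.

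**Figure D3:**
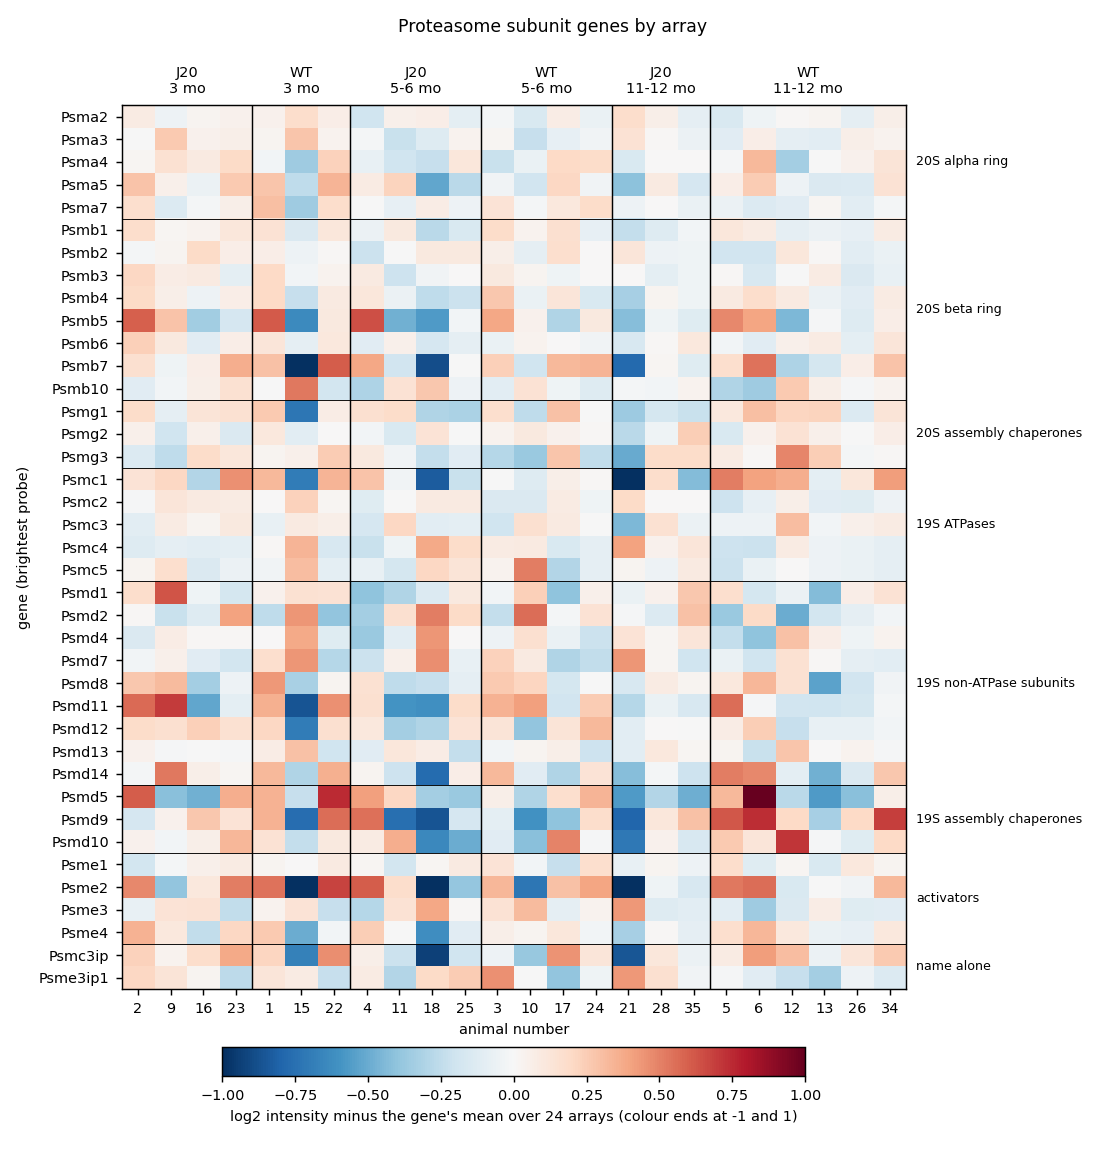
Log2 intensity of the 39 members on 24 arrays, each gene centred on its own mean, arrays in columns by group (J20 left of WT at each age) and genes in lines by role, with colour from blue at -1 to red at 1. The columns of WT animal 15, J20 animal 18 and J20 animal 21 stand out, low in Psmb7, Psmc1 and Psme2 and high in Psmc4 and Psmd7.

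With age, too, no member passed in any comparison. In WT mice 0 of 39 passed for 5-6 against 3 months (0%; unadjusted 0, 2.57%), 0 for 11-12 against 3 months (0.105%; unadjusted 0, 4.41%) and 0 for 11-12 against 5-6 months (0.0436%; unadjusted 0, 1.65%). In J20 mice 0 passed for 5-6 against 3 months (0%; unadjusted 1, 3.18%), 0 for 11-12 against 3 months (0.0611%; unadjusted 0, 5.31%) and 0 for 11-12 against 5-6 months (0.0349%; unadjusted 0, 1.34%). Over both genotypes 0 passed for 5-6 against 3 months (0.0698%; unadjusted 1, 4.14%), 0 for 11-12 against 3 months (0.358%; unadjusted 0, 5.97%) and 0 for 11-12 against 5-6 months (0.0523%; unadjusted 0, 1.33%). In each bracket the first percentage is the share of all probes called, and the second count and share are those at an unadjusted p under 0.05.

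Over both genotypes together most members lay slightly lower at the later ages than at 3 months, by less than the arrays could resolve for single genes. For 11-12 minus 3 months over both genotypes 34 of 39 members stood below 0, all 8 beta subunits, all 5 alpha subunits and all 9 non-ATPase subunits among them. The median over members was -0.07, with 12.8% above 0, against 0.01 over all genes with 51.6% above 0. The member median was -0.03 within BeadChip 2, with 16 members above 0, and -0.07 within BeadChip 3, with 11 above 0. No J20 array of 11-12 months lies on BeadChip 1. In the same comparison the median over 3 red cell markers was -0.85, over 3 neuronal markers 0.39, over 3 astrocyte markers 0.19, over 4 endothelial markers -0.18, over 4 fibroblast markers -0.17, over 6 macrophage markers 0.04, over 3 myelin markers -0.02 and over 7 epithelial markers -0.01. The 1 ependymal marker stood at -0.04. Their part in the members' differences was not tested. The summed intensity of the red cell markers ran from 905 to 1717 in J20 mice and 713 to 3033 in WT mice at 11-12 months, against 1140 to 9256 in J20 mice and 1497 to 6977 in WT mice at 3 months. The differences of members ran between -0.36 for Psmd5 and 0.07 for Psmc4, and the 95% interval of 30 members (76.9%) lay inside -0.5 to 0.5, against 60.9% of all genes. Members share the 24 arrays, so these counts are a description and were not tested.

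For 5-6 minus 3 months 30 of 39 members stood below 0 in J20 mice (median -0.15, all genes 0.02), while in WT mice 21 stood below and 18 above 0 (median -0.01, all genes -0.0042). Whether the genotypes differ in this was not tested over the members. The comparisons with 3 months share their animals, so they are not independent of each other. For 11-12 minus 3 months in J20 mice 29 members stood below 0 (median -0.09, all genes 0.04), and in WT mice 23 did (median -0.04, all genes -0.01). Within BeadChips 1, 2 and 3 the WT median was -0.13, 0.15 and -0.06 for 5-6 minus 3 months. For 11-12 minus 3 months it was -0.07, 0.11 and -0.09. The J20 median for 5-6 minus 3 months was -0.12, -0.09 and -0.11, and that over both genotypes was -0.10, 0.04 and -0.06. For 11-12 minus 3 months the J20 median was -0.09 within BeadChip 2 and -0.08 within BeadChip 3. Between 5-6 and 11-12 months the members were nearly balanced, with 20 above 0 in J20 mice and 18 above 0 in WT mice. With median scaling in place of quantile normalization the J20 median for 5-6 minus 3 months was -0.04, that for 11-12 minus 3 months was 0.03, and that for WT mice was -0.15.

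Psmb3, a structural beta subunit, shows the size of the shift. It stood at 12.61, 12.50 and 12.56 in J20 mice of 11-12 months, against 12.81, 12.67, 12.69 and 12.50 at 3 months. WT mice had 12.44, 12.56 and 12.68 as lowest, median and highest at 11-12 months, against 12.80, 12.57 and 12.64 at 3 months. The ages overlapped in both genotypes, and the difference was -0.12 (95% interval -0.27 to 0.04, adjusted p = 0.9991 in limma). Psma5, an alpha ring subunit, averaged 12.03 at 11-12 months and 12.23 at 3 months, a difference of -0.20 that did not pass (95% interval -0.45 to 0.06, adjusted p = 0.9991 in limma).

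Single members differed more within a genotype, again without passing. In J20 mice of 11-12 months against 3 months Psmc4 averaged 12.58 against 12.29, a difference of 0.29, and Psmb1, a structural beta subunit, averaged 12.41 against 12.63, a difference of -0.22 (adjusted p = 0.81 for each in limma). In WT mice of 11-12 months against 5-6 months Psmd9 averaged 5.86 against 5.28, a difference of 0.59, and Psmg3, a chaperone of 20S assembly, averaged 8.53 against 8.24, a difference of 0.29 (adjusted p = 0.9999 for each in limma). These genes were among those with the smallest unadjusted p-values of their comparison. So was Psmc1 in J20 mice, which averaged 9.18 at 11-12 months against 9.75 at 3 months. That difference of -0.56 did not pass (adjusted p = 0.81 in limma) and was -0.87 to -0.25 with 1 array left out.

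The lowest unadjusted p over both genotypes was that of Psma3, an alpha ring subunit. It averaged 12.63 at 5-6 months and 12.82 at 3 months, a difference of -0.19 (95% interval -0.35 to -0.03) that did not pass (unadjusted p = 0.025, adjusted p = 0.9998 in limma). Its 5-6 month values were 12.70, 12.50, 12.59 and 12.75 in J20 mice and 12.73, 12.49, 12.63 and 12.68 in WT mice. At 3 months they were 12.71, 12.98, 12.76 and 12.78 in J20 mice and 12.74, 12.99 and 12.75 in WT mice. The ages overlapped in J20 mice, and in WT mice every animal of 5-6 months lay below every animal of 3 months.

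Psmc3ip, which is a member by its symbol alone, stood at 8.71, 8.43, 7.72 and 8.45 in J20 mice of 5-6 months, against 8.88, 8.68, 8.83 and 9.03 at 3 months. One animal of 5-6 months, animal 4, lay within the range of 3 months. The difference was -0.53 (95% interval -1.04 to -0.01, unadjusted p = 0.046, adjusted p = 0.96 in limma). With 1 array left out it ran from -0.65 to -0.32, the latter without J20 animal 18.

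The correlation of member signals from array to array was close to that of all genes on average. With group means removed, the median Pearson r over 741 pairs of members was 0.03, beside 0.02 over all pairs of tested genes, and 19.97% of member pairs had r above 0.5 while 14.4% had r below -0.5. Over all gene pairs these shares were 14.6% and 13.5%. The most alike pairs were Psmb7 with Psme2 (r = 0.93) and Psmb10 with Psmd4 (r = 0.90), and the most opposed were Psmc3ip with Psme3 (r = -0.87) and Psmb7 with Psmc4 (r = -0.87). Among the 27 subunits of the core and of the 19S particle alone, without chaperones, activators and the genes that are members by symbol only, the median over 351 pairs was 0.0014, with 17.9% above 0.5 and 15.7% below -0.5. All pairs share the same 24 arrays and their signal strength.

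The members were also set against the first component of the other probes. Of 39 members 19 (48.7%) had r above 0.5 with it, against 23.4% of all genes, and 8 (20.5%) had r below -0.5, against 34.6% of all genes. Psmb7 (0.96), Psme2 (0.95), Psmc3ip (0.86) and Psmc1 (0.86) stood at one end. Psmc4 (-0.88), Psmd4 (-0.88), Psmb10 (-0.84) and Psme3 (-0.82) stood at the other. Subunits of 1 ring stood on both sides, as Psmc1 and Psmc4 of the ATPase ring do. By their brightest probes Psmb7 and its interferon-inducible counterpart Psmb10 also did. With the component the second Psmb7 probe had r = 0.98 and the third r = -0.50. With the component removed as well, 9.58% of member pairs had r above 0.5 and 5.94% below -0.5, beside 6.01% and 5.41% of all gene pairs. These correlations run over 24 arrays of different depth and are given as a description.

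**Figure D4:**
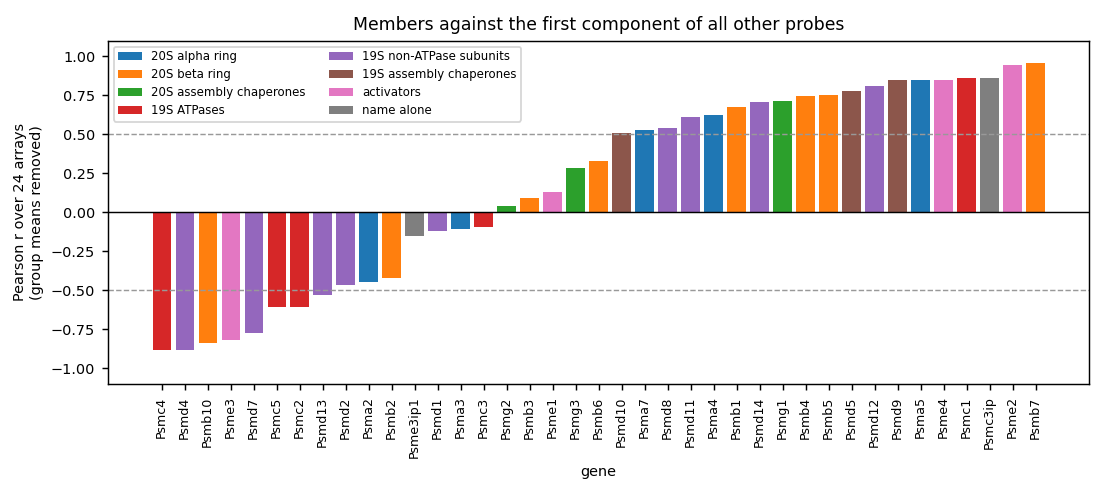
Pearson r of each member with the first component of all tested probes other than members, over 24 arrays with group means removed, coloured by role, with dashed lines at -0.5 and 0.5. The 19 members above 0.5 and the 8 below -0.5 come from several roles, with Psmb7 at 0.96 and Psmc4 at -0.88.

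Probes of the same gene could take opposite sides of this axis. For 11 members a second tested probe exists, and the brightest probe was compared with each other one in 13 pairs: 7 had r above 0.5, 2 between 0 and 0.5 and 4 below 0. The brightest Psmb7 probe had r = 0.98 with the second probe and r = -0.46 with the third. On the arrays of WT animal 15, J20 animal 18 and J20 animal 21 the brightest Psmb7 probe read 9.82, 10.08 and 10.18, the second 8.06, 8.56 and 9.02, and the third 10.54, 10.56 and 10.46. The brightest and second probes were at their lowest there and the third at its highest. For Psmd7, a scaffold of the lid that holds the deubiquitinase, the brightest probe had r = -0.77 with the component and the second r = 0.92, and for Psmc5, an ATPase of the base, the values were -0.61 and 0.90. For J20 minus WT over the 3 ages the 3 Psmb7 probes stood at -0.17, -0.28 and -0.02, and the brightest and second Psmd7 probes at 0.02 and -0.36, none past the threshold.

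**Figure D5:**
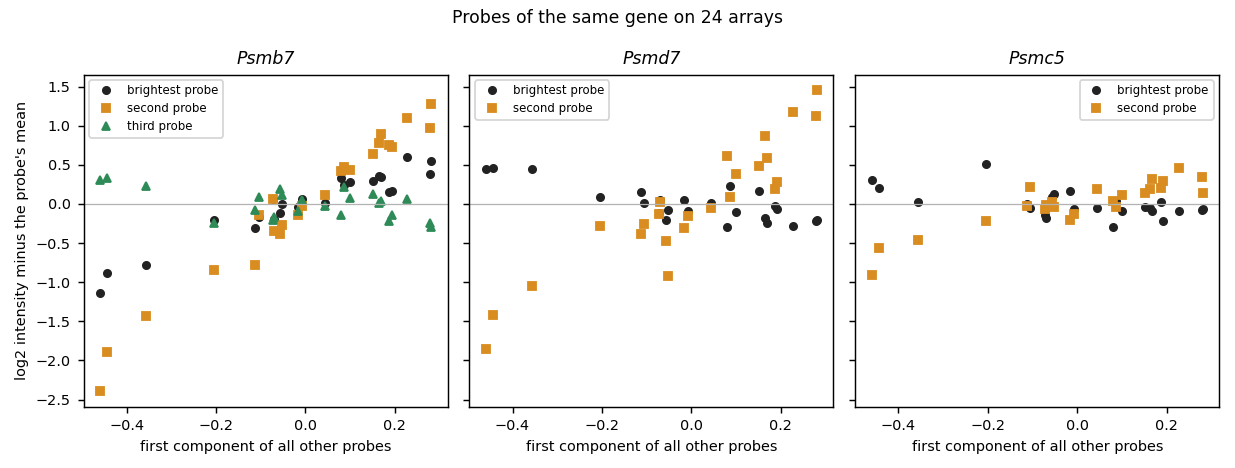
Log2 intensity of each tested probe of Psmb7, Psmd7 and Psmc5, centred on the probe's own mean, against the first component of all other probes, 1 point per array and probe for 24 arrays. The second probe of each gene climbs along the axis, while the brightest probes of Psmd7 and Psmc5 and the third of Psmb7 do not.

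Spread within groups also differed by member. The median SD within groups was 0.227 over the 39 members and 0.302 over all genes. Among genes with a mean log2 above 8 it was 0.212 over 34 members and 0.244 over 4324 genes. Besides Psma2, the steadiest members were Psmc2, an ATPase of the base (SD 0.0966), and Psmb3 (SD 0.101). At 11-12 months Psmc2 stood at 13.18, 12.9995 and 12.997 in J20 mice, against 12.78, 12.90 and 13.05 as lowest, median and highest in WT mice. The difference of Psmc2 over the 3 ages was 0.07 (95% interval -0.05 to 0.20, adjusted p = 0.9999 in limma).

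The interferon-inducible counterparts that the rule leaves out were weak on these arrays. Psmb8, the counterpart of Psmb5, was detected on 1 array and was not tested. Psmb9, the counterpart of Psmb6, was detected on 24 arrays and averaged 6.61 ± 0.10 in J20 mice (SD, n = 3) and 6.59 ± 0.31 in WT mice (SD, n = 6) at 11-12 months. At 3 months it averaged 7.01 ± 0.26 in J20 mice (SD, n = 4) and 7.22 ± 0.42 in WT mice (SD, n = 3). Over both genotypes Psmb9 stood at 6.60 at 11-12 months and 7.12 at 3 months, a difference of -0.52 (standard error 0.16) that did not pass (unadjusted p = 0.0038, adjusted p = 0.28 in limma).

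Genes that work beside the proteasome were listed by function, and 0 of them passed in any of the 13 pairwise comparisons. The lists held 8 tested of 14 proteasome partners, 8 of 11 ubiquitin shuttles and p97 factors, 4 of 6 regulators of proteasome genes, 9 of 14 genes of MHC class I presentation and 6 of 7 stress partners. Of 6 genes for ubiquitin and its activating enzymes only Uba6 has a probe, which was detected on 0 arrays, so none could be tested. For 11-12 minus 3 months over both genotypes the list medians were 0.07 for partners, with 8 of 8 above 0, -0.01 for shuttles, 0.07 for regulators, -0.05 for class I presentation and 0.0021 for stress partners. For J20 minus WT over the 3 ages they were 0.02, 0.02, 0.09, 0.10 and -0.0058 in the same order.

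The co-chaperone gene Bag3, which directs damaged proteins to autophagy, came closest. It averaged 11.52 ± 0.11 in J20 mice (SD, n = 3) and 11.64 ± 0.24 in WT mice (SD, n = 6) at 11-12 months, against 11.21 ± 0.10 in J20 mice (SD, n = 4) and 11.08 ± 0.15 in WT mice (SD, n = 3) at 3 months. The difference over both genotypes was 0.43 (95% interval 0.22 to 0.65, adjusted p = 0.075 in limma). Ubqln4, a shuttle for ubiquitinated proteins, averaged 8.61 at 11-12 months and 8.15 at 3 months over both genotypes, a difference of 0.46 (adjusted p = 0.25 in limma). Nfe2l1, the regulator of proteasome genes, averaged 12.80 ± 0.15 in J20 mice and 12.49 ± 0.23 in WT mice at 11-12 months, a difference of 0.31 that did not pass (95% interval -0.07 to 0.70, adjusted p = 0.70 in limma). Pomp, the chaperone that matures the core, averaged 13.20 in J20 mice and 13.17 in WT mice over the 3 ages, a difference of 0.02 (95% interval -0.08 to 0.13, adjusted p = 0.9999 in limma).

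Heat shock protein genes had the lowest unadjusted p-values of these lists for genotype, Hspa1a at 11-12 months and Hsp90aa1 over the 3 ages. Hspa1a, an inducible chaperone of the Hsp70 family, averaged 6.08 in J20 mice and 7.13 in WT mice at 11-12 months, a difference of -1.05 that did not pass (95% interval -1.91 to -0.19, adjusted p = 0.70 in limma). Hsp90aa1, an inducible Hsp90 chaperone, averaged 6.32 in J20 mice and 6.02 in WT mice over the 3 ages, a difference of 0.30 that did not pass (95% interval 0.07 to 0.54, adjusted p = 0.9999 in limma). Sqstm1, the autophagy receptor p62, averaged 11.12 in J20 mice and 11.68 in WT mice at 11-12 months, a difference of -0.56 that did not pass (95% interval -1.14 to 0.02, adjusted p = 0.70 in limma). With 1 array left out that difference ran from -0.81 (without J20 animal 28) to -0.11 (without J20 animal 21).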

How the data were processed

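RNA of 24 mouse choroid plexus samples was measured on Illumina arrays of 25697 probes, and no label names the scanner or its software. For each probe and array, the deposited table without normalization holds an intensity and a detection p-value, per the file headers. The authors' series matrix holds log2 values that equal the quantile-normalized log2 of those raw intensities, as checked on the values, without background correction. Here intensities were background-corrected by normexp with controls inferred from the detection p-values (limma 3.58.1, neqc, offset 16, R 4.3.3), quantile-normalized and taken to log2. Probes with a detection p-value under 0.01 on at least 3 arrays were tested (11464). One limma fit of 6 group means over all 24 arrays gave every comparison, with Benjamini-Hochberg adjustment over all tested probes and a threshold of 0.05; the fit was tested on simulated data. The number of arrays limits the precision. The labels do not say whether litters or days were shared, so p-values measure the spread between these samples. The table holds 0 columns of other samples.

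Members, lists and motifs were chosen with earlier results of these data known, and the interferon motifs after seeing the data. Genes given by animal are the catalytic and interferon-inducible members, those with the largest and smallest spread, and in each comparison up to 4 members per direction with the smallest unadjusted p; Psmd10 and the further members described by class values were added after their values were seen. From each related list up to 3 genes with the smallest unadjusted p could be named. Symbols were updated through gene identifiers. Alternatives tried were the series matrix, median scaling, other detection filters, BeadChip, array weights, signal strength, averaged probes, only the groups compared, and left-out arrays. Protein sequences were not analysed here.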

Additional observations from a re-analysis of the deposited data

Results flagged for a closer look

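Single animals stood apart from the rest of their group in 5 of 156 combinations of a member and a group of 4 or 6 animals, by the gap to the nearest other animal as a share of the group's range. Chance alone sets apart about 1 in 20 groups. Psme2, the beta subunit of the interferon-inducible activator, stood at 8.26 in WT animal 10 at 5-6 months, with the other animals of the group between 9.28 and 9.38. Psmc3, an ATPase of the 19S base, stood at 12.47 in WT animal 12 at 11-12 months, with the others between 12.11 and 12.24. Psmd11, a lid subunit, stood at 7.36 in WT animal 5 at 11-12 months, with the others between 6.61 and 6.79. Psmd14, the deubiquitinase of the lid, stood at 8.08 in J20 animal 9 at 3 months, with the others between 7.53 and 7.61. Psmd13, another lid subunit, stood at 12.71 in J20 animal 2 at 3 months, with the others between 12.65 and 12.66.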

How the results depend on the processing

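The 86 results (28 on comparisons, 58 on single members) were computed under 10 other settings and with each of 24 arrays left out. The count of called members was 0 throughout except with array weights, where it was 1 for J20 against WT at 11-12 months: Psmc1, -0.64. No paired analysis was possible because each animal number occurs once, so that the groups share no numbers. Fitting only the groups compared was not run for the mean of 3 ages, which uses all groups. The member median for 11-12 minus 3 months over both genotypes stayed between -0.12 and -0.03 with 1 array left out. With median scaling the member median was -0.10 for J20 against WT at 3 months, 0.037 at 11-12 months, -0.15 for WT 11-12 against 3 months, -0.042 for J20 5-6 against 3 months and 0.025 for J20 11-12 against 3 months. For WT 5-6 against 3 months it was -0.10 with array weights and -0.10 without the 3 arrays that stood apart, a setting chosen after seeing the data, and -0.10 to 0.056 with 1 array left out. With averaged probes it was -0.14 for J20 against WT at 11-12 months. The causes were not tested.

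Signs of small differences turned. Psmb10 for J20 against WT over the ages was 0.0016 with median scaling, 0.057 with array weights, 0.012 with averaged probes, 0.041 without the 3 arrays and -0.050 to 0.067 with 1 array left out; Psmb6 was -0.040 to 0.0060. With array weights Psmg1 was -0.052 for J20 against WT at 3 months, -0.082 for WT 5-6 against 3 months and -0.069 for WT 11-12 against 3 months. Without the 3 arrays these Psmg1 values were -0.073, -0.12 and -0.028, and with 1 array left out -0.073 to 0.42, -0.12 to 0.38 and -0.028 to 0.47. Without the 3 arrays Psmd12 was -0.14 for WT 5-6 against 3 months, Psmc1 -0.047 for WT 11-12 against 3 months, Psmc4 -0.0098 for J20 against WT at 5-6 months and Psmd7 -0.011 for J20 5-6 against 3 months. With 1 array left out these ranges were -0.14 to 0.32, -0.048 to 0.47, -0.0099 to 0.19 and -0.011 to 0.22. With averaged probes Psmd7 was 0.024 for J20 against WT at 3 months and -0.17 for J20 5-6 against 3 months. With signal strength in the fit Psmg2 was -0.014 for 11-12 against 3 months over both genotypes, and -0.037 to 0.092 with 1 array left out. Psmd2, Psmd5 and Psmd9 were detected on 3, 5 and 12 arrays, so that their values lie partly near background.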

Other observations

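With the first component of the other probes removed as well as group means, other pairs of members led. Psmc3ip and Psmg3 had r = 0.82, Psme2 and Psmg1 r = 0.79, and Psmc1 and Psmc3, both ATPases of the 19S base, r = 0.77 over 24 arrays. Psmb5 and Psmc3ip were the most opposed, at r = -0.70. Psmb10 and Psmd4 kept r = 0.62, while Psmb7 and Psme2 had r = 0.28. The pairs share the same arrays, and no test was made.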
